A study of Mus musculus with 6 samples.

Results

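Colonies grown for 7 days from newborn mouse testis were compared with testicular cells taken by surface CD49f alone, at the same postnatal stage. The comparison used 4 of the 6 microarrays of the study, 2 for each group, and covered all genes with a probe carrying 1 gene symbol. These were 19084 symbols, of which 15459 passed a filter on low signal and were tested, and 3625 did not. The other 2 arrays held colonies of the embryonic gonad (PGC colonies). They took part in the normalization, the choice of probe and the filter, and entered the fit only through the estimate of spread. All animals were of the ICR strain. For GSC colonies the RNA came from testicular cells pooled from 80 newborn to P2 mice, with every cell of the testis seeded. These cells were plated on laminin at 200 ng/cm2 and fed insulin, transferrin, selenium and, at 10 ng/ml, epidermal growth factor (EGF) under 5% O2, and colonies were picked for RNA. The CD49f sorted arrays held RNA of cells from 100 newborn to P2 mice, labelled with an antibody to CD49f and held on a magnetic column, with no culture. Their labels name physiological hypoxia and give no oxygen value. The labels expand GSC as glandular stem cells. Culture, growth factor, laminin, oxygen and selection differ together between the groups and cannot be told apart. The labels do not tell if a group's arrays represent separate preparations of cells, so the spread that the p-values measure may be technical.

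In the newborn testis, germ cells settle on the basement membrane of the seminiferous cords, and some become spermatogonial stem cells. Sertoli cells, which line the cords, peritubular myoid cells, which wrap them, and interstitial cells supply the growth factors that the germ cells read. CD49f is the alpha6 integrin chain, part of a laminin receptor. It is used to enrich spermatogonial stem cells, and epithelial, endothelial and Sertoli cells carry it as well.

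The arrays were single-colour (Cy5), with a median deposited intensity of 606 and 558 for GSC colonies and 393 and 406 for sorted cells. Levels are given on a normalized log2 scale on which the filter stood at 7.82, and a difference is the GSC colony mean minus the sorted mean, with its SE. Each group has n = 2 arrays, and adjusted p-values are from limma with Benjamini-Hochberg adjustment over the 15459 genes. "Rose" and "fell" are used for genes past an adjusted p of 0.05, higher or lower in colonies. If the dimmer group was under the filter level on both arrays, a fold is a lower bound ("at least"). Levels of different genes are not set against each other.

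Markers written for the cell types that either sample could hold separated the groups. All 10 fibroblast markers tested (11 on the array) and all 4 peritubular myoid markers tested (6 on the array) rose. All 10 macrophage markers, 9 of 10 Sertoli markers and 9 of 10 endothelial markers fell. Of all genes, 22.5% rose and 24.5% fell. Markers on the array that were not tested did not pass the filter. The log2 levels of the 10 fibroblast markers summed to 131.4 and 132.0 in colonies and 90.8 and 91.1 in sorted cells. Those of the 10 Sertoli markers summed to 114.0 and 114.3 against 144.0 and 143.6, and those of the 10 macrophage markers to 86.8 and 85.0 against 128.3 and 127.8. These sums add log2 values over genes, so they are no total of RNA and their ratio is no fold. The median log2 difference was 4.30 for fibroblast, -2.86 for Sertoli and -4.00 for macrophage markers. Of the macrophage markers, Adgre1, Tyrobp and C1qb lay under the filter level on both colony arrays, and of the Sertoli markers, Amh did. No fibroblast marker lay under it in sorted cells, but the peritubular myoid marker Tagln did. Among 13 germ cell markers tested (15 on the array) 7 rose and 1 fell, with sums of 135.9 and 134.7 against 126.0 and 126.7. The remaining lists were mixed or low: 1 of 4 Leydig markers rose and 2 fell, 3 of 5 mast cell, 2 of 4 lymphocyte, both erythroid, 1 of 4 adipocyte and 3 of 7 skeletal muscle markers fell with none higher, and 1 of 6 neural markers rose and 3 fell. Of 8 mesothelial and epithelial markers 3 rose (the mesothelial genes Msln, Upk1b and Upk3b) and 4 fell (Krt8, Krt18, Cdh1 and Epcam, of which Krt18 lost its call without normalization). In bulk RNA, fewer cells of a type and less RNA per cell cannot be told apart, and the part of these cell types in the gene groups described here was not tested.

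Most changes were small. Of the 15459 genes, 3486 rose and 3793 fell, which is 47.1% in all, and 8180 (52.9%) did not pass. The median rise was 0.94 and the median fall -0.86 on the log2 scale, the top decile of rises began at 2.72, and that of falls at -2.20. Among genes that rose, 22.9% changed by less than 1.5-fold, 30.5% by 1.5- to 2-fold, 29.7% by 2- to 4-fold, 8.78% by 4- to 8-fold and 8.09% by more than 8-fold. Among genes that fell these shares were 24.8%, 33.6%, 29%, 8.49% and 4.14%. At 2-fold or more, 1624 genes rose (10.5%) and 1580 fell (10.2%). The largest changes thus lay more often on the colony side, with 282 genes over 8-fold higher and 157 over 8-fold lower, while under this scaling falls outnumbered rises in each class under 8-fold. Of the genes that did not pass, 3495 had a 95% interval of the difference within ±0.5. The groups' arrays did not overlap for 75.6% of all genes, so separation of 2 arrays from 2 is common here.

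**Figure D1:**
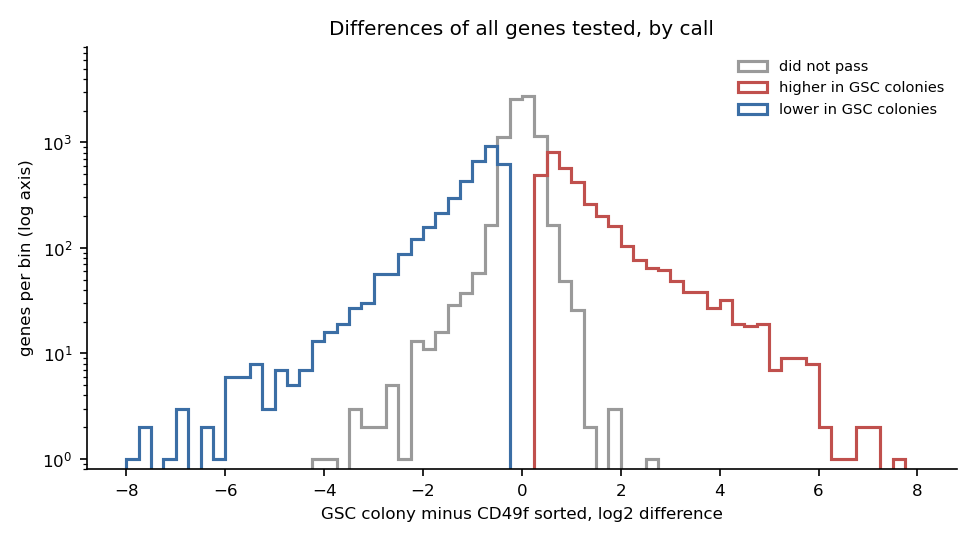
Number of genes (log axis) by log2 difference, GSC colony minus CD49f sorted, in bins of equal width, with separate outlines for genes that rose (3486), fell (3793) and did not pass (8180). Called genes begin just outside the central peak of genes that did not pass, and the arm of rises reaches past 6 with more genes than its lower counterpart at 2 to 5.

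The balance of rises and falls depended on how the arrays were scaled. With quantile normalization 47.9% of the called genes were higher in colonies. Without normalization between arrays the median gene shifted by 0.465 and 82.5% of calls were higher. With median centring 4020 genes were higher and 3188 lower, so that 55.8% of calls were higher and rises outnumbered falls. Counts of gene groups below are those with quantile normalization, and where the count of a whole list without normalization differed by over 1.5 times it follows. Counts of parts of a list, such as ligands, receptors or antagonists, were not recomputed without normalization, so their dependence on the scaling is not known. The shares to set beside them are 22.5% of all genes higher and 24.5% lower, and a group near these shares does not stand out. The arrays of a group agreed for most genes, with a median absolute deviation of their difference of 0.171 in colonies and 0.185 in sorted cells. A minority did not: 588 genes lay over 2-fold apart between the colony arrays and 265 between the sorted arrays. Of 153 genes that differed over 2-fold between groups without passing, 117 had GSC colony replicate 1 over 2-fold below replicate 2. Mrpl36, a mitochondrial ribosomal protein gene, measured 5.74 and 13.76 in colonies and 13.69 and 14.22 in sorted cells, and Copz1, a coat protein gene, measured 10.69 and 14.16 against 13.69 and 13.51. For such genes a single array sets the mean, and no difference is read from them.

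Genes of cell division were lower in colonies. Mitosis turns on a set of kinases, kinesins, kinetochore proteins and the ubiquitin ligase that ends metaphase. Of 49 mitosis genes tested, 46 fell and 0 rose, with a median difference of -1.56 against -0.01 for all genes. Nuf2, Mki67 and Ncapg did not pass. Kif23, the kinesin of the cytokinetic midzone, measured 11.66 and 11.56 in colonies and 14.03 and 13.89 in sorted cells, and fell by 2.35 ± 0.14 (limma adjusted p = 3.7e-05). The groups did not overlap, and each pair of arrays lay close together. Ube2c, which feeds ubiquitin to the anaphase ligase, measured 10.46 and 11.72 against 13.86 and 13.68, and fell by 2.68 ± 0.37 (adjusted p = 0.0015), or -2.05 without GSC colony replicate 1 and -3.31 without replicate 2. Plk1, the polo kinase that drives entry into mitosis, measured 9.84 and 12.07 against 13.75 and 13.59 (adjusted p = 0.014). Its colony arrays stood over 4-fold apart, and the difference of -2.72 ± 0.65 became -1.61 and -3.84 without GSC colony replicate 1 and 2. The call was lost without either sorted array (-2.64 and -2.80). Mki67, the gene of the proliferation antigen Ki-67, was at 13.38 and 13.28 against 13.45 and 13.43 and did not pass on the probe that stood for the gene (difference -0.11 ± 0.15, limma adjusted p = 0.59). Its other probe fell by 1.56 (limma adjusted p = 0.00017), and the mean of both was -0.83, so the 2 probes disagree.

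The replication and repair lists fell as well, by less. Of 43 replication genes 38 fell and 1 rose, with a median of -0.93. Gmnn, the geminin that blocks relicensing of origins, fell by 1.90 ± 0.23 and Lig1, the ligase that seals Okazaki fragments, by 1.74 ± 0.16. The member that rose was Rrm2, a subunit of ribonucleotide reductase, at 14.07 and 14.23 in colonies against 12.13 ± 0.18 (SD, n = 2) in sorted cells (2.02 ± 0.21, limma adjusted p = 0.00042). Of 28 genes of repair by recombination 20 fell and 0 rose (median -0.81), among them Rad51d, at least 2.41-fold lower, and Bard1, the partner of BRCA1, which fell by 1.79 ± 0.14. All 3 list medians lay below the all-gene median with quantile normalization and without it. Relative to that median they were -1.55 for mitosis, -0.92 for replication and -0.79 for repair with quantile normalization. Without normalization they were -1.48, -0.79 and -0.72. Median centring shifts each array by a constant, so it gives these same relative values and is no separate check. A relative value also leaves out the overall shift between scalings. Counts were more fragile, and without normalization 21 replication genes and 13 repair genes fell while 7 repair genes rose.

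Promoters of the mitosis genes often carried the sequence through which the DREAM complex is known to silence cell cycle genes. DREAM binds the cell cycle homology region (CHR, TTTGAA), often near a CCAAT box (CCAAT, bound by NF-Y). In RefSeq promoters of mouse build GRCm38.p6, from 250 bases before to 50 bases after the transcription start, TTTGAA stood on either strand in 29 of 41 mitosis genes with a promoter (70.7%). It stood in 14.9% of the 12251 tested genes with a promoter and in 20.2% of all 27025 genes. The share was 16.4% among all genes that fell and 14.3% (5 of 35) among replication genes. CCAAT stood in 28 of 41 mitosis genes (68.3%) and 23 of 35 replication genes (65.7%), against 41.9% of tested genes. Among all genes that fell it stood in 42.4%, so these shares describe the lists and not the falls in general. Promoters of 2 mitosis genes that hold both are shown, with TTTGAA and CCAAT on either strand in capitals. They cover the 250 bases before the start of Ube2c (chr2:164769679-164769928, plus strand) and Ect2 (chr3:27153879-27154128, minus strand), a cytokinesis factor, and were chosen after the matches were known.
Ube2c: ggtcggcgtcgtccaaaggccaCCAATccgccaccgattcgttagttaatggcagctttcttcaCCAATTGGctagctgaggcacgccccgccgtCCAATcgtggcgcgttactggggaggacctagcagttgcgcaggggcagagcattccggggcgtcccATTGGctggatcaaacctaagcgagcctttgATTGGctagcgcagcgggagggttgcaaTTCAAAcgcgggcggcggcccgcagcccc
Ect2: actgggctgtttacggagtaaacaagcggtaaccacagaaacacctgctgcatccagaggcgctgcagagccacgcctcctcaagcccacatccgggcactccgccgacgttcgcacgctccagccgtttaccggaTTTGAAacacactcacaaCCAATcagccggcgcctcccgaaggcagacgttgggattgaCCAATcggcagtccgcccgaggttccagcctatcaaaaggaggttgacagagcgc
A match describes these letters and is no evidence of binding.

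Most genes on a list of CDK inhibitors, p53 targets and senescence genes rose in the same arrays, and arrest of the cell cycle was not measured. Cdkn1a, which encodes the CDK inhibitor p21 and is a direct p53 target, measured 15.61 and 15.50 in colonies and 11.01 and 10.83 in sorted cells, a rise of 4.63 ± 0.14 (limma adjusted p = 3.4e-06). Of 26 CDK inhibitors, p53 targets and senescence genes, 18 rose and 6 fell (2 fell without normalization), with a median of 1.08 (1.10 relative to all genes, and 1.33 without normalization). Phlda3, a p53 target that restrains AKT, measured 14.50 and 14.49 against 10.58 and 10.21 and rose by 4.10 ± 0.19. Cdkn2b, a CDK4 and CDK6 inhibitor, rose by 3.80 ± 0.30. Ccng1, Zmat3, Fas and Bbc3, further p53 targets, rose by 3.33, 3.16, 2.64 and 2.40. No array of one group reached those of the other for Cdkn1a, Phlda3 or Ccng1. The members that fell were led by Gadd45b (-2.29 ± 0.13), an early stress gene, and Sesn1 (-1.56 ± 0.10), itself a p53 target. Of the nuclear lamina genes, Lmnb1, whose loss accompanies senescence in cultured cells, measured 12.11 and 12.04 against 14.54 and 14.42 and fell by 2.41 ± 0.12, while Lmna rose by 2.53 ± 0.17 on 1 probe and did not pass on the other (0.65, limma adjusted p = 0.12). With quantile normalization, nuclear pore and splicing genes were lower as well. Of 24 pore genes 16 fell and 2 were called higher (Sec13 at 0.62 and Seh1l at 0.41), with a median of -0.59. The other Seh1l probe fell by 0.78 (limma adjusted p = 0.0025), so no direction is given for that gene. The falls were led by Nup210 (-1.87 ± 0.10) and Pom121 (-1.83 ± 0.12). The calls on Sec13 and Seh1l were lost without either sorted array (0.57 and 0.67 for Sec13, 0.50 and 0.32 for Seh1l) and without GSC colony replicate 1 (0.53 and 0.39), that on Seh1l also without replicate 2 (0.42). Without normalization 4 pore genes fell and 5 rose, with a list median of -0.45 relative to all genes. Of 62 splicing genes 32 fell and 1 rose (median -0.42), but the count fell to 18 with median centring and to 19 and 18 without either sorted array. Without normalization 5 splicing genes fell and 20 rose, so the direction of the calls depends on the scaling, as for the pore genes. Relative to all genes, the splicing median was -0.41 with quantile normalization and -0.28 without normalization. Hnrnph2 was the splicing gene that rose, by 1.35 ± 0.13.

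**Figure D2:**
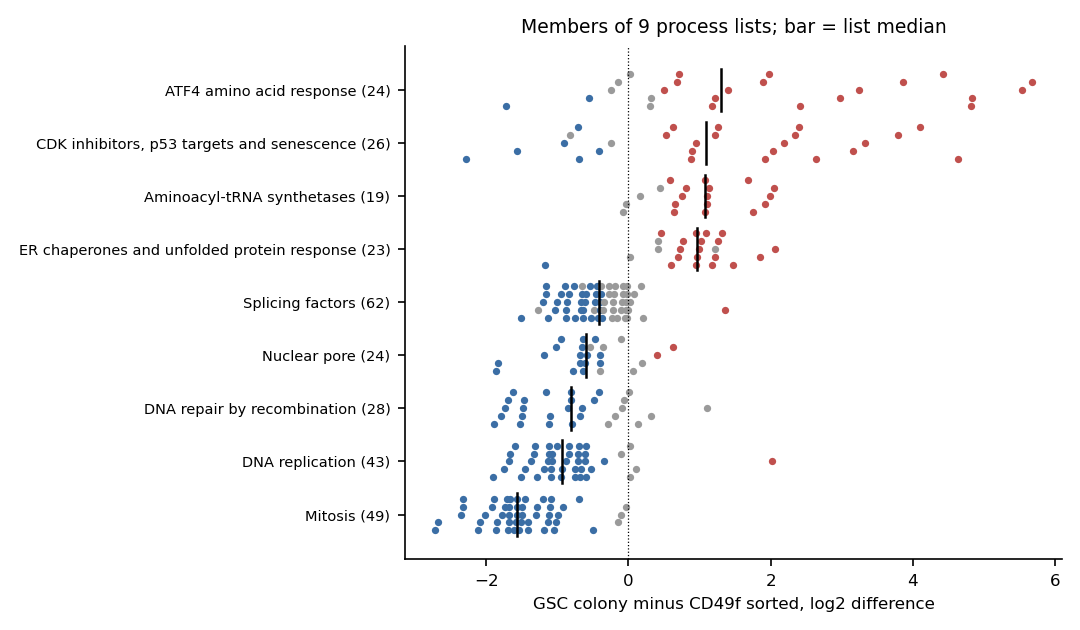
Log2 difference of every tested member (points) of 9 process lists, with the number tested in brackets and the list median as a bar; red rose, blue fell, grey did not pass. The mitosis, replication, repair, pore and splicing lists lie mostly left of 0, and the ATF4, p53, synthetase and ER lists mostly right of it.

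Genes of the amino acid shortage response rose in colonies. When uncharged tRNA or unfolded protein accumulates, kinases halt general translation and the factor ATF4 is made, which switches on genes for amino acid import, amino acid synthesis and tRNA charging. Of 24 such genes 17 rose and 2 fell, with a median of 1.31. Nupr1, a stress-induced chromatin protein, measured 14.71 and 14.81 in colonies and 9.22 and 8.95 in sorted cells and rose by 5.68 ± 0.20 (adjusted p = 5.7e-06, limma). Trib3, a pseudokinase that feeds back on ATF4, measured 15.03 and 15.17 against 9.53 and 9.60 (5.54 ± 0.12). Chac1, which degrades glutathione, measured 13.56 and 13.59 against 8.77 and 8.75 (4.81 ± 0.12). All 3 genes separated the groups by over 8-fold, with less than 0.3 between the arrays of a group. Vldlr, a lipoprotein receptor, was at least 23.9-fold higher, Slc7a3, an arginine and lysine transporter, rose by 4.43 ± 0.11, Atf5 by 3.87 and Ddit3, the gene of CHOP, by 3.24. Other rises on the list were small: Atf4 itself rose by 0.49 ± 0.12 (limma adjusted p = 0.013) and Asns, the asparagine synthetase gene, by 0.71 ± 0.18. The call on Atf4 was lost without any 1 of the 4 arrays (0.47 to 0.51), and that on Asns without sorted replicate 2 (0.54). Atf3 fell by 1.73 ± 0.14. The transporter gene Slc7a1 fell by 0.55 ± 0.14, a call lost without GSC colony replicate 1, replicate 2 or sorted replicate 2 (-0.56, -0.55 and -0.39) and with median centring (-0.26), and turned to 0.16 without normalization.

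The enzymes that load tRNAs rose as a group. Of 19 aminoacyl-tRNA synthetase genes 15 rose and 0 fell, and Aars, Kars, Farsa and Qars did not pass; without normalization Kars, Farsa and Qars passed as higher (0.82, 0.47 and 0.50). Yars, the tyrosine enzyme, measured 13.80 and 13.57 in colonies and 11.53 and 11.76 in sorted cells and rose by 2.04 ± 0.15 (limma adjusted p = 9.6e-05). Sars and Nars, the serine and asparagine enzymes, rose by 1.98 ± 0.12 and 1.92 ± 0.10. The list median stood 1.09 above that of all genes, and 1.22 without normalization. Taken array by array, the synthetase median over the sorted mean was 1.06 and 0.97 on the colony arrays, and that of the ATF4 list 1.36 and 1.54. In PGC colonies, compared with the same sorted arrays and so not an independent comparison, these medians were 1.22 and 2.08.

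The composite C/EBP-ATF response element (CARE, searched as TGATGNAA on either strand) stood in 7 of 21 ATF4 list promoters (33.3%) and 5 of 12 synthetase promoters (41.7%). The share was 3.04% of tested genes, 3.38% of genes that rose and 1 of 21 in the ER list (4.76%). Both lists were written from known gene functions, so their shares describe the lists and not the difference between the groups. The promoters of Nupr1 (chr7:126625471-126625720, minus strand), Chac1 (chr2:119350992-119351241, plus strand) and Tars (chr15:11399659-11399908, minus strand), the threonine enzyme, are shown because they hold the element, in capitals, in the 250 bases before the start.
Nupr1: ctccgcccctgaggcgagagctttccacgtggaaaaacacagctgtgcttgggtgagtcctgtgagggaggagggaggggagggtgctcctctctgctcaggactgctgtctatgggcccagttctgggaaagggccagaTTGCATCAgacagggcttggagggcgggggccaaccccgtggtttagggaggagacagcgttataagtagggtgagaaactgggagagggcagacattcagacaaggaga
Chac1: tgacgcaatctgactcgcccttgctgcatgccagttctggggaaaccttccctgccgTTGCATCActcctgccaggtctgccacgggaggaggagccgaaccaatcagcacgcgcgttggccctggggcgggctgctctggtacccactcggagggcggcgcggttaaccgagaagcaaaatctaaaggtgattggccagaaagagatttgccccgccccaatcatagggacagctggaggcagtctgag
Tars: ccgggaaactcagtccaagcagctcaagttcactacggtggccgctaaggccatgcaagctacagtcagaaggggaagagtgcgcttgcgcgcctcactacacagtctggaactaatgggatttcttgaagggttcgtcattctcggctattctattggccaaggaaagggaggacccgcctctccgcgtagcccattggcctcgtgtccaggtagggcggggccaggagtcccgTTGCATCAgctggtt
Chac1 and Nupr1 rose by 4.81 and 5.68 as given above, and Tars rose by 1.13 ± 0.14.

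The endoplasmic reticulum list moved with them at a smaller scale. Chaperones, disulfide isomerases and degradation factors of the endoplasmic reticulum (ER) are induced when unfolded protein builds up there. Of 23 genes 18 rose and 1 fell, with a median of 0.96. Herpud1, which helps remove unfolded protein, measured 14.36 and 14.39 in colonies and 12.31 and 12.32 in sorted cells and rose by 2.06 ± 0.13 (adjusted p = 4.5e-05, limma). Ero1a, the oxidase that drives disulfide formation and a known hypoxia target, rose by 1.84 ± 0.13, and its paralog Ero1b was the member that fell, by 1.18 ± 0.12. Pdia6, a disulfide isomerase, rose by 1.48 ± 0.14 on 1 probe, and its other probe did not pass (0.13, limma adjusted p = 0.50). Hspa5, the master chaperone BiP, measured 15.69 and 15.70 against 14.66 and 14.30 without overlap but did not pass (1.21 ± 0.98, adjusted p = 0.36). Its SE came from the PGC colony arrays, at 16.20 and 12.77, and with the 4 compared arrays alone, or without either PGC colony array, the same difference passed (limma adjusted p = 0.0034 with the 4 arrays).

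The ER stress response element (ERSE, searched as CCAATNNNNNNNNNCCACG on either strand, which contains the CCAAT box) stood in 9 of 21 ER promoters (42.9%), against 0.147% of tested genes. It stood in 0 of 41 mitosis and 0 of 21 ATF4 list promoters. CCAAT alone stood in 19 of 21 (90.5%). Pdia6 (chr12:17266339-17266588, plus strand) and Creld2 (chr15:88819396-88819645, plus strand), an ER chaperone that rose by 1.21, are shown, with the element in capitals.
Pdia6: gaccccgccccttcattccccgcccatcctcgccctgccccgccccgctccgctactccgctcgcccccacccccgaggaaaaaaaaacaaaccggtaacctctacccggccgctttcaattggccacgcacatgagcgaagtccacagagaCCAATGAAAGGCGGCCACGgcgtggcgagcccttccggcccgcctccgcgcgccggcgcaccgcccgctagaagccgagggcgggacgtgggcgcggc
Creld2: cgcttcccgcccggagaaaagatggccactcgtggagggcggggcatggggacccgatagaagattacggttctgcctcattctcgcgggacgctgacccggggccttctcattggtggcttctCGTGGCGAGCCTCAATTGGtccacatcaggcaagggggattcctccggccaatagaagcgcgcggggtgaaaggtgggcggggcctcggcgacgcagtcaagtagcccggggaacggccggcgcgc
A match is again only a description. The ER list was written from known gene functions, so its share describes the list and not the difference between the groups. Among genes that rose, 0.255% held the ERSE.

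Genes that move cargo out of the ER changed less. Of 26 coat genes of the secretory pathway, which form the COPI and COPII vesicles, 10 rose and 0 fell, and 6 and 5 rose without either sorted array and 18 without normalization. Copz2, a COPI subunit of fibroblasts, rose by 2.86 ± 0.17, and Creb3l1, a factor that induces secretory and collagen genes, rose by 1.42 ± 0.14. Of the 19 enzymes that fold and cut collagen tested, 13 rose and 1 fell (median 1.03). P4ha2, a prolyl hydroxylase subunit, was at least 10.9-fold higher, P3h3 rose by 2.57 ± 0.11 and Fkbp14 fell by 1.33 ± 0.10. Their cargo rose further, with 24 of 37 collagen chains higher and 2 lower (median 1.35). Col9a2, a chain of cartilage collagen IX, was the exception by size, at 8.55 and 8.28 against 12.60 and 12.56 (-4.17 ± 0.14). Of the 15 elastic fibre and lysyl oxidase genes tested, 12 rose and 0 fell (median 1.62), led by Lox and Mfap4 (4.35 ± 0.11), a microfibril protein. Of the 14 small leucine-rich proteoglycans tested, 7 rose and 0 fell (11 rose without normalization), with Bgn at 17.58 and 17.58 against 12.24 and 11.99. Matrix-cutting enzymes were divided: among 32 proteases and inhibitors 16 rose and 5 fell, with Mmp19 up by 4.44 ± 0.20 and Adamts16, a protease gene of the fetal gonad, down by 4.44 ± 0.20 from 13.50 and 13.78 to 9.30 and 9.11. Of the 28 serpins tested, 14 rose and 2 fell (24 and 0 without normalization). Serpina5, known for its role in male fertility, fell by 1.12 ± 0.15, a call lost without normalization.

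**Figure D3:**
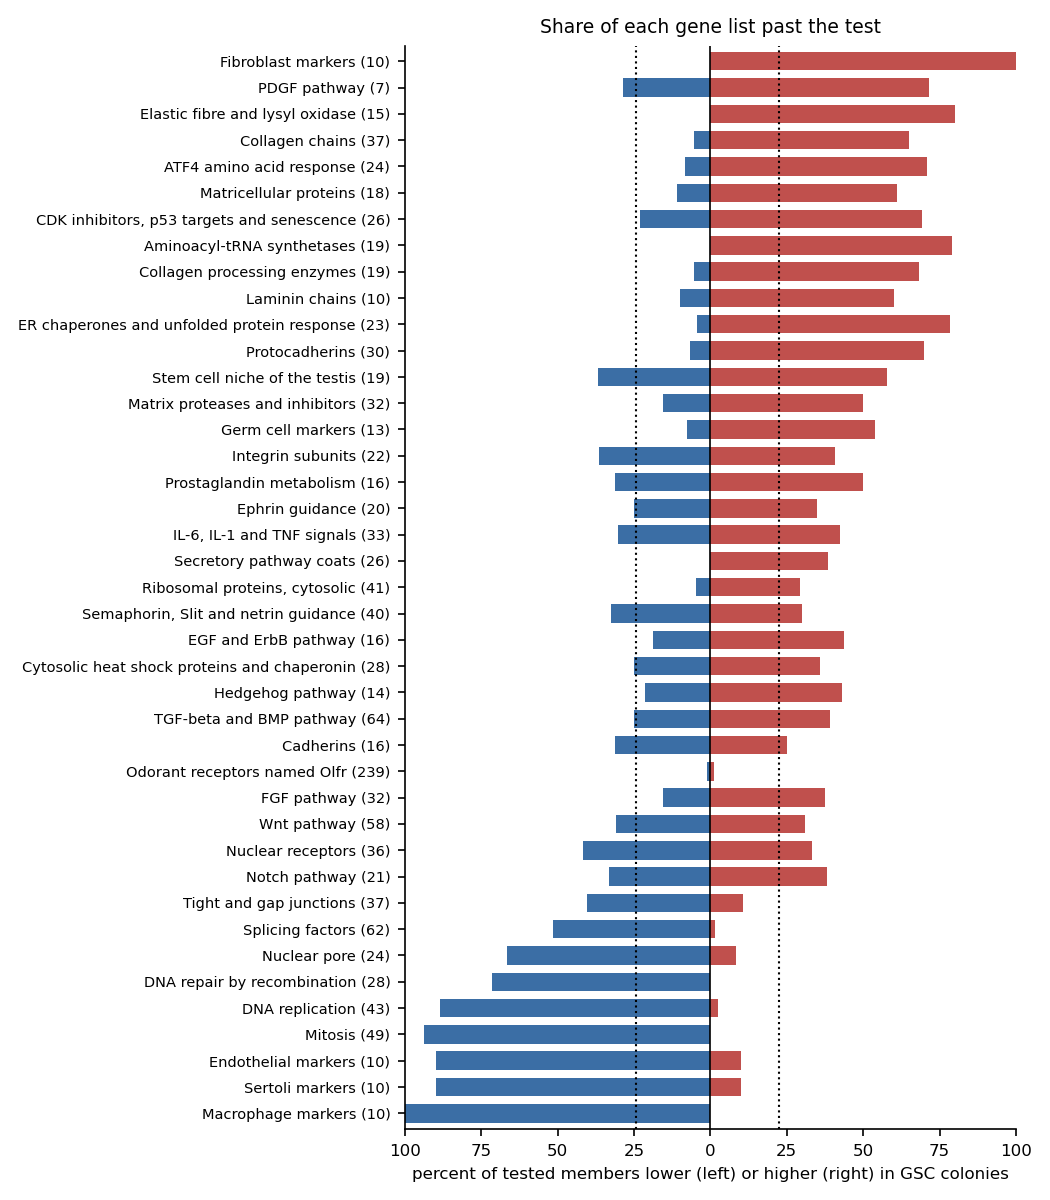
Share of tested members (number in brackets) that rose (red, right) or fell (blue, left) in GSC colonies for 41 gene lists, ordered by median difference. Dotted lines mark the shares over all genes, 22.5% and 24.5%; mitosis, replication and the Sertoli, endothelial and macrophage markers lie at the bottom and the fibroblast, PDGF and elastic fibre lists at the top.

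Platelet-derived growth factors act on mesenchymal cells through 2 receptor kinases. Pdgfrb measured 14.09 and 14.07 in colonies and 8.49 and 8.40 in sorted cells, a rise of 5.63 ± 0.11 (limma adjusted p = 1.9e-06), and Pdgfra rose by 4.78 ± 0.11. With the decoy-like Pdgfrl, all 3 receptor genes rose. Of the 4 ligands, Pdgfc and Pdgfd rose, while Pdgfa fell by 1.57 ± 0.12 and Pdgfb by 2.23 ± 0.20. In the testis, Pdgfa comes mainly from Sertoli cells and Pdgfb from endothelium, and markers of both cell types fell in these arrays, as given above; their part was not tested.

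Of 14 hedgehog genes 6 rose and 3 fell. Dhh, the Sertoli ligand that patterns the interstitium, measured 12.16 and 12.20 in colonies and 15.37 and 15.32 in sorted cells, a difference of -3.16 ± 0.13 (limma adjusted p = 7.9e-06). Of 3 ligands tested 2 fell. Gas1 and Boc, coreceptors that help cells bind hedgehog, rose by 4.05 ± 0.13 and 3.16 ± 0.23. The GLI factors, which carry the signal in the nucleus, all rose: Gli1 was at least 3.64-fold higher, and Gli2 and Gli3 rose by 1.30 and 1.02. Ptch1, the receptor and a standard target of the pathway, fell by 0.82 ± 0.12. Gli1 and Ptch1, both read as pathway targets, thus moved in opposite directions.

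The receptor of the growth factor in the medium rose strongly. Egfr measured 13.32 and 13.35 in colonies and 7.97 and 8.10 in sorted cells, a rise of 5.30 ± 0.13 (adjusted p = 2.3e-06, limma). Among 16 EGF and ErbB genes 7 rose and 3 fell (11 and 2 without normalization). The ligand genes Nrg1 and Ereg rose by 2.96 ± 0.17 and 2.95 ± 0.45 (2.23 and 3.66 for Ereg without sorted replicate 1 and 2), and the feedback inhibitor Errfi1 rose by 2.38. The other receptors went the other way, with Erbb2 lower by 1.70 ± 0.34 and Erbb3 at least 1.51-fold lower (a call lost without normalization), and the ligand Tgfa fell by 1.18 ± 0.16.

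**Figure D4:**
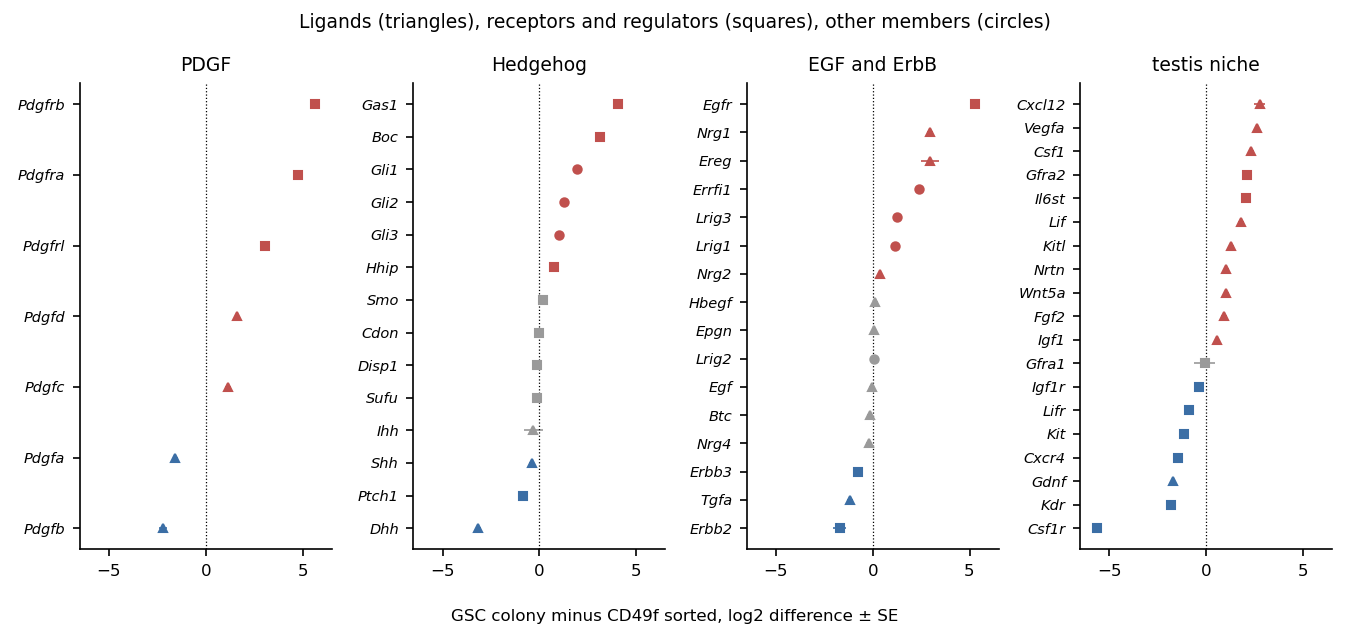
Log2 difference ± SE (n = 2 arrays per group) for tested members of 4 signalling lists: triangles are ligands, squares receptors and regulators, circles other members; red rose, blue fell, grey did not pass. PDGF receptors, hedgehog coreceptors and Egfr stand at the top of their panels, while Pdgfa, Pdgfb, Dhh and Csf1r stand near the foot.

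The stem cell niche list holds growth factors and their receptors. Of 10 ligands 9 rose and 1 fell, and of 9 receptors 2 rose and 6 fell; with a filter at the 50th percentile, 7 members rose in place of 11. Cxcl12, which retains stem spermatogonia in their niche, measured 12.43 and 12.51 in colonies and 9.72 and 9.70 in sorted cells (2.76 ± 0.28, limma adjusted p = 0.00035). Vegfa rose by 2.63 ± 0.12 and Csf1, which promotes stem cell renewal, by 2.32 ± 0.13. The ligand that fell was Gdnf, the Sertoli factor on which spermatogonial stem cell renewal depends, at 11.58 and 11.47 against 13.18 and 13.32 (-1.73 ± 0.11, adjusted p = 5.9e-05). Its receptor gene Gfra1 was at 10.46 and 9.04 against 9.30 and 10.38, so the groups overlapped and no difference passed (adjusted p = 0.91). Kit, the receptor of differentiating spermatogonia and of mast cells, fell by 1.14 ± 0.16, Csf1r, a macrophage receptor, by 5.65 ± 0.11, and the endothelial receptor Kdr by 1.83 ± 0.23.

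Germ cell genes were measured with mixed results. Zbtb16, a transcription factor that keeps spermatogonia undifferentiated, was at least 6.17-fold higher in colonies, at 10.47 and 10.43 against 7.07 and 7.09. Taf7l, a germ cell transcription factor subunit, measured 10.78 and 10.82 against 8.66 and 8.67. Dazl, Mael, Pou5f1, Nanos3 and Tex101 rose as well, by 1.45, 1.09, 0.91, 0.61 and 0.52, the last a call lost without GSC colony replicate 2 (0.46) or sorted replicate 2 (0.35). Id4, a regulator of stem spermatogonia, fell from 9.53 and 9.53 to 8.02 and 8.20 (-1.42 ± 0.15, adjusted p = 0.00047). Ddx4, Piwil2, Nanos2, Gfra1 and Etv5 did not pass, though without normalization Ddx4, Piwil2 and Nanos2 were higher (0.75, 0.97 and 0.54). Fibroblasts and other somatic cells can express Zbtb16 too, and all 10 fibroblast markers rose beside it; its source was not tested. Of 24 genes of meiosis and germ cell specification 8 rose and 5 fell (5 rose without GSC colony replicate 2, 3 fell with a filter at the 50th percentile, and 14 rose and 3 fell without normalization), and of 14 piRNA pathway genes 4 rose and 3 fell (9 and 2). Ifitm3, a surface gene of early germ cells that interferon also induces, rose by 3.77 ± 0.12, and Mybl1, a meiotic transcription factor, fell by 1.22 ± 0.12.

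The genes that define the sort and the colonies were followed whatever their values. Itga6, which encodes CD49f, measured 11.86 and 11.76 in colonies and 12.26 and 12.10 in sorted cells. The groups did not overlap, but the difference of -0.37 ± 0.12 (limma adjusted p = 0.042) lost its call without any 1 of the 4 arrays (-0.29 to -0.45) and was 0.20 without normalization. With median centring it was -0.22 and did not pass. Of its partner chains, Itgb4 was lower by 0.47 ± 0.16, and Itgb1 was higher by 1.17 ± 0.11 on 1 probe while the other, at 0.14, did not pass. Alpl, an alkaline phosphatase used as a marker of primitive germ cells, measured 9.78 and 9.69 in colonies and 12.12 and 12.39 in sorted cells, a difference of -2.52 ± 0.17. Cd9, a surface marker of stem spermatogonia and many somatic cells, rose by 1.14 ± 0.13. Of the genes of hypoxia-inducible factor subunits followed, Epas1 rose by 1.38 ± 0.20 on 1 probe. It did not pass on the other (0.48, limma adjusted p = 0.32). Hif1a rose by 0.48 ± 0.16 (limma adjusted p = 0.047). The calls on Hif1a and Itgb4 were lost without GSC colony replicate 2 (0.34 and -0.28), sorted replicate 1 (0.43 and -0.43) or sorted replicate 2 (0.52 and -0.51), and that on Itgb4 also without either PGC colony array or with median centring. Both were lost with a floor in place of normexp or with no filter, and that on Hif1a also with an offset of 16 (limma adjusted p from 0.051 to 0.054).

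The TGF-beta family, which signals through SMADs, had members at both extremes. Bmp6 measured 14.78 and 14.60 in colonies and 8.88 and 8.95 in sorted cells, a rise of 5.78 ± 0.15 (limma adjusted p = 2.3e-06), and Gdf10 rose by 4.54 ± 0.12. Amh, the Sertoli hormone that regresses the female duct, was at least 25.4-fold lower, and the inhibin and activin subunit genes Inhbb and Inha fell by 3.10 ± 0.11 and by 2.83. Over the whole TGF-beta list 25 of 64 rose and 16 fell (38 and 11 without normalization). Of 20 ligands 10 rose and 4 fell. Receptors were balanced, with 4 of 13 higher and 5 lower, but Tgfbr3 and Tgfbr2 rose by 4.43 ± 0.11 and 3.96. Of 16 antagonists 8 rose and 2 fell, with Fst, which traps activin, at least 9.62-fold higher and a decrease for the related Fstl3, which fell by 2.99 ± 0.14. The inhibitory SMAD genes Smad6 and Smad7, which TGF-beta and BMP signals induce, fell by 2.68 and 2.00.

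Of 58 Wnt genes 18 rose and 18 fell (27 and 9 without normalization). Wnt6 was the largest fall, from 15.50 and 15.30 to 11.32 and 11.30 (-4.09 ± 0.13, limma adjusted p = 4.1e-06). Rspo3, which amplifies Wnt signals, was at least 12.9-fold higher, and Dkk3, a secreted modulator, rose by 5.28 ± 0.13. Among receptors 5 of 16 rose and 8 fell, with Ror2, the receptor of noncanonical Wnts, up by 3.68 and Fzd3 down by 2.50 ± 0.10. Of the 32 FGF genes tested, 12 rose and 5 fell (16 and 3 without normalization). Fgf10, a mesenchymal ligand, was at least 6-fold higher and Fgf21, a known ATF4 target, rose by 2.36 ± 0.10, whereas Fgf18 fell by 3.25 ± 0.13 and the feedback phosphatase Dusp6, a common readout of ERK signalling, by 1.44 ± 0.13. Of the 21 Notch genes tested, 8 rose and 7 fell (10 and 4 without normalization): Dlk1 and Hes1 rose by 2.08 ± 0.14 and 1.82 ± 0.17, and Nrarp and Mfng, a target and a modifier of Notch, fell by 3.49 ± 0.14 and 2.90 ± 0.12.

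**Figure D5:**
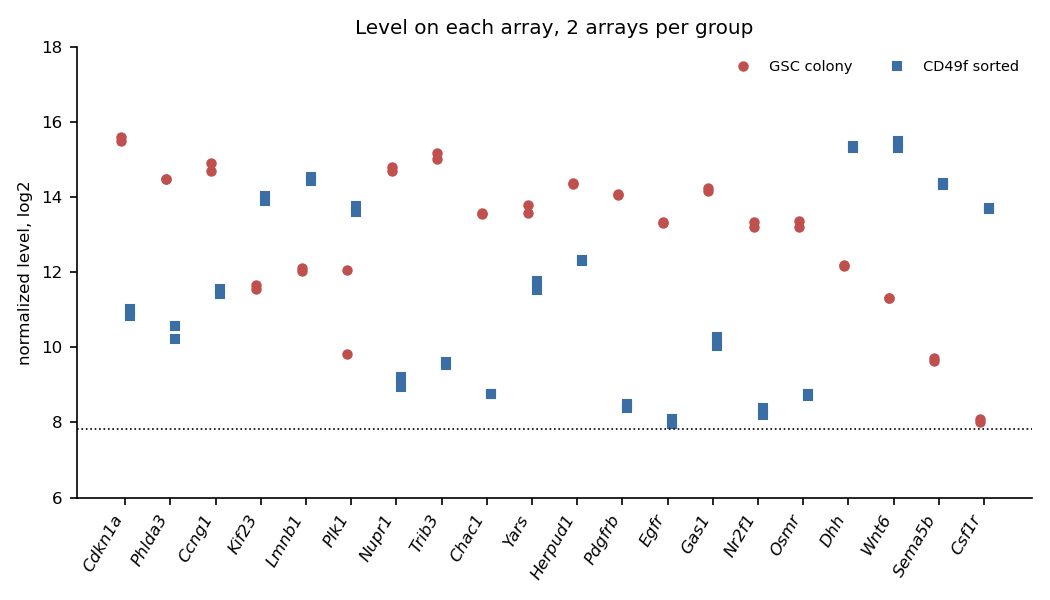
Normalized log2 level on each array for 20 genes of the gene groups described, with GSC colony arrays as circles and CD49f sorted arrays as squares; the dotted line is the filter level of 7.82. The groups do not overlap for any of the 20, and the 2 colony arrays of Plk1, at 9.84 and 12.07, are the pair farthest apart.

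Guidance and adhesion genes changed member by member. Sema5b, a semaphorin, measured 9.72 and 9.63 in colonies and 14.39 and 14.34 in sorted cells, a difference of -4.69 ± 0.21 (limma adjusted p = 1.2e-05). Of 40 semaphorin, Slit and netrin genes 12 rose and 13 fell (21 and 7 without normalization). Unc5b, a netrin receptor, Sema3d and Slit2 rose by 3.13 ± 0.13, 2.84 ± 0.14 (0.86 on its other probe) and 2.71 ± 0.10. Plxnd1, a plexin of endothelium, fell by 2.63 ± 0.35. Of the 20 ephrin genes tested, 7 rose and 5 fell (3 fell without either sorted array, and 12 rose and 3 fell without normalization), with Efna5 up by 3.53 ± 0.13 and Epha2 down by 2.37 ± 0.11. Of the protocadherin, cadherin, junction, laminin and integrin lists, protocadherins had the largest share that rose: 21 of 30 (70%) rose and 2 fell, with a median of 0.96. Pcdh19 was at least 10.1-fold and Pcdhb16 at least 6.62-fold higher. Clustered protocadherins are near-identical copies whose probes may detect one another, so their number is uncertain, and 11 rose under a filter at the 50th percentile. Classical cadherins were divided, 4 of 16 up and 5 down (9 and 5 without normalization), with Cdh11, a mesenchymal cadherin, up by 2.62 ± 0.11 and the endothelial Cdh5 down by 2.12 ± 0.10. Of the 37 tight and gap junction genes tested, 15 fell and 4 rose (10 and 12 without normalization). Cgn, cingulin, fell from 15.39 and 15.41 to 12.16 and 12.34 (-3.15 ± 0.21), and Cldn1 rose by 3.07 ± 0.31. Of the 10 laminin chains tested, 6 rose and 1 fell, with Lama2 higher by 4.24 ± 0.17 and Lama3 lower by 2.67 ± 0.11. Of the 22 integrin subunits tested, 9 rose and 8 fell, or 5 fell with median centring, without normalization and without GSC colony replicate 2 or either sorted array. Itga8, an integrin of smooth muscle and mesenchyme, rose by 3.12 ± 0.14, and the leukocyte chain Itgad fell by 3.13 ± 0.13.

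Nuclear receptors moved both ways. Nr2f1 and Nr2f2, the COUP-TF genes of mesenchyme and of fetal Leydig progenitors, rose by 4.99 ± 0.14 and 3.61 ± 0.20, and Pgr, the progesterone receptor, by 4.16 ± 0.11. Nr2f1 was at 13.35 and 13.22 in colonies and 8.20 and 8.39 in sorted cells (limma adjusted p = 2.6e-06). Nr0b1 and Nr5a1, which encode DAX1 and SF1 and govern gonadal and steroidogenic cells, fell by 3.63 ± 0.13 and 2.32 ± 0.12. In all 12 of 36 rose and 15 fell (16 and 8 without normalization). Among 81 Sox, Fox, Gata, Tbx and Klf factors 18 rose and 25 fell (39 and 18). Klf15 and Klf5 rose by 3.52 ± 0.15 and 3.25 ± 0.11, while Sox7 and Sox17, factors of endothelium, were at least 2.80-fold and 4.81-fold lower. Of the 30 Polycomb and histone methylation genes tested, 11 fell and 2 rose (5 rose with median centring, and 3 fell and 11 rose without normalization). Ezh2, the methyltransferase known to be high in dividing cells, fell by 1.31 ± 0.11, and Bmi1, a Polycomb subunit, rose by 1.73 ± 0.14.

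Cytokine and prostaglandin genes were divided. Osmr, the oncostatin M receptor, measured 13.37 and 13.21 in colonies and 8.71 and 8.75 in sorted cells, a rise of 4.56 ± 0.13 (adjusted p = 3.1e-06, limma). Il6 was at least 3.96-fold higher, and Il6st, the shared signal chain gp130, rose by 2.07 ± 0.20. Tnf, a macrophage cytokine, fell by 1.99 ± 0.39 (-2.65 and -1.34 without GSC colony replicate 1 and 2), and the NF-kappaB feedback genes Tnfaip3 and Nfkbia fell by 3.36 ± 0.17 and 1.92 ± 0.12. Of 33 cytokine genes 14 rose and 10 fell (22 and 4 without normalization). Of 16 prostaglandin genes 8 rose and 5 fell. Ptgs2, the inducible cyclooxygenase, and Ptgis, the prostacyclin synthase, rose by 4.13 ± 0.24 and 3.92 ± 0.13. Ptgds, the prostaglandin D synthase of Sertoli cells, measured 11.40 and 13.14 in colonies and 16.41 and 16.04 in sorted cells (-3.95 ± 0.52, or -3.08 and -4.82 without GSC colony replicate 1 and 2), and Tbxas1, a thromboxane synthase of myeloid cells, was at least 8.79-fold lower. The macrophage marker sums given above moved in the direction of Tnf and Tbxas1. Ptgds is itself 1 of the 10 Sertoli markers, so its fall is part of the Sertoli sums. The part of these cell types was not tested. Of the 27 complement genes tested, 7 rose and 9 fell (13 and 8 without normalization), with C7 at least 9.29-fold higher and the macrophage gene C1qc lower by 4.99. Class I antigen transporters Tap2 and Tap1 rose by 2.88 ± 0.13 and 1.57 ± 0.33, and class II genes H2-Aa and Ciita fell, H2-Aa by 1.37 ± 0.11 and Ciita at least 1.13-fold (a call lost without normalization and, at -0.46 and -0.49, without GSC colony replicate 1 or sorted replicate 2). MHC probes may detect related copies.

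Heat shock genes differed from one another. Cryab, a small heat shock protein of muscle and stressed cells, rose by 4.57 ± 0.15 and Hspb7 by 2.73 ± 0.12. The inducible Hspa1a measured 8.28 and 8.21 in colonies and 10.42 and 10.66 in sorted cells and fell by 2.29 ± 0.13 (limma adjusted p = 3e-05), and Hspa1b fell by 1.61 ± 0.12. These 2 genes are near-identical, and each probe may read both. Of 28 heat shock and chaperonin genes 10 rose and 7 fell (20 and 3 without normalization). Of 38 antioxidant genes 9 rose and 11 fell (21 and 7 without normalization), with Gpx3, the secreted glutathione peroxidase, up by 5.39 ± 0.10 and Gsta3, a glutathione transferase, down by 2.90 ± 0.14.

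For the basic machinery of translation, respiration and protein breakdown no direction is given, because the counts turned on the scaling and on single arrays. Of 81 respiratory chain genes 12 rose and 17 fell, of 71 mitochondrial ribosomal genes 7 and 17, of 43 proteasome genes 7 and 2, of 55 translation factors 11 and 8, and of 41 cytosolic ribosomal genes 12 and 2. With median centring these counts were 25 and 3, 15 and 6, 15 and 0, 17 and 3, and 17 and 2. Without normalization 58, 42, 35, 40 and 32 rose. Leaving out any 1 of the 4 arrays left 4 to 11 respiratory falls, 6 to 11 mitochondrial ribosomal falls and 2 to 4 proteasome rises. Translation factors fell in 4 cases without GSC colony replicate 1 and in 3 without either sorted array, and 6 and 5 cytosolic ribosomal genes rose without GSC colony replicate 2 and sorted replicate 2. Cox6a2, the muscle form of a cytochrome oxidase subunit, stood out among respiratory genes with a rise of 3.54 ± 0.11 on 1 probe. Its other probe rose by 1.08. Odorant receptors, most of which are known from the nose, had few calls with quantile normalization: 3 of 239 rose and 3 fell, against 22.5% and 24.5% of all genes. Without normalization 105 rose and 0 fell, and with no filter 9 rose. Without GSC colony replicate 2, 7 rose and 16 fell, without replicate 1, 5 fell, and 6 and 5 rose without sorted replicate 1 and 2.

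Some genes were picked for high array signal, which does not rank their expression. Of those that passed with less than a 2-fold change, Lgals1, a galectin, and Fth1, a ferritin chain, rose by 0.65 ± 0.15 and 0.77. Aldh1a1, a retinal dehydrogenase, and Tuba1b, an alpha tubulin, fell by 0.36 ± 0.11 and 0.81 ± 0.11, and without normalization both turned higher (0.60 and 0.12), as Aldh1a1 did with median centring (0.18). With median centring the call on Tuba1b was lost (-0.30). The call on Lgals1 was lost without sorted replicate 1 (0.55) and that on Aldh1a1 without any 1 of the 4 arrays (-0.34 to -0.38). Of those that did not pass, Clu, clusterin, was at 17.78 and 17.74 against 18.09 and 18.09 (limma adjusted p = 0.050). It passed as lower with the 4 arrays alone or a filter at the 50th percentile, and was 0.67 without normalization. Cd81 and Rpl41 did not pass either, but were higher with median centring (0.78 and 0.59). Calls were fewer at low signal: among the 25% of genes with the lowest mean signal 16.6% rose and 17.1% fell, and in the highest 25.7% and 29%.

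Below the 10 largest changes, genes were ranked by fitted difference, which is uncertain in rank for genes with a bound only. Ranks 11 to 25 among the rises held Hoxa10 (at least 44.5-fold), Ccn4 (5.94 ± 0.10), Medag, Mgp, Col6a3, Bmp6, Postn, Nupr1, Ctsk, Thy1, Pdgfrb, Aldh1l2, Tfpi2, Amer2 and Trib3. Aldh1l2, a mitochondrial folate enzyme, rose by 5.60, Mgp, a matrix calcification inhibitor, by 5.89 and Medag by 5.90. Those among the falls were Rasl12, Ctss, Wfdc10, Exoc3l2, Ccl17, Plbd1, Csf1r, Ccl4, Miox, Cx3cr1, Chp2, Sel1l3, F13a1, Tyrobp and Laptm5. Ctss, Ccl4, Cx3cr1, F13a1 and Tyrobp, genes of macrophages and other leukocytes, lay under the filter level in colonies and were at least 22.1-, 43.5-, 32.8-, 19- and 19.7-fold lower. Rasl12, a small GTPase, and Miox, an inositol oxidase, fell by 5.98 and 5.59.

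Several probes of one gene seldom contradicted each other. Of 1720 genes with several tested probes, 524 had all probes called in 1 direction, 578 some, 588 none, and 30 (1.74%) had probes called in opposite directions. The widest gap was in Parm1, an androgen-regulated membrane protein, whose probes differed by 2.93 and -1.12 between groups. 4930523C07Rik, Rapgef5, Ptger4 and Lpcat3 followed, so no direction is given for these 5 genes.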

How the data were processed

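Each array measured Cy5-labelled RNA, amplified from total RNA, of 1 sample, and groups were taken from the labels. The values the authors deposited are linear intensity, for 26423 probes on each of 6 arrays. The scanner, software, background method and scaling are named in no label or file used. A single gene symbol was given for 21876 probes, several for 0 and none for 4547. RefSeq's gene table held the Entrez identifiers of 21825 probes and updated 0 symbols.

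The deposited intensity was background corrected (normexp, offset 50), converted to log2 and then normalized by quantiles in R 4.3.3 with limma 3.58.1. For 2424 symbols with several probes, the probe with the highest mean stood for the gene. Genes below the 30th percentile on more than 4 of 6 arrays were not tested. All 6 arrays entered 1 fit (lmFit, eBayes, 3 residual degrees of freedom, median SE 0.134), and the threshold was a Benjamini-Hochberg adjusted p of 0.05. Signal over background is known only through the filter level, and precision is limited by how few arrays there are. On simulated data 83.6% of 2-fold and 8.96% of 1.5-fold changes were recovered, with 12 false calls among 15259 unchanged genes. Few genes were changed there, 67 at each of these folds, against 47.1% of genes called in the data. A Benjamini-Hochberg cut is stricter with so few changes, so these rates do not carry over to the data.

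The 75 gene lists (2683 genes tested, 70 of them in more than 1 list) and the rules were chosen with earlier results of these data known. Lists are described by counts and medians, with no list test. Genes were named by rule: ranks 11 to 25 in each direction, up to 2 rises and 2 falls of each list, the 10 highest levels that passed under 2-fold or did not pass, the 5 genes with the most opposed probes, cell type markers and genes of the sort and niche. Other list members named for their known role were chosen after their values were seen. Promoters were RefSeq's, 300 bases each, for 27025 genes. Alternatives covered scaling, offset, floor, filter, probe choice, arrays fitted, trend, replicate block and leaving out each array.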

Additional observations from a re-analysis of the deposited data

Results flagged for a closer look

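Probes with no gene symbol stood outside the comparison of genes, and many of them passed the same limma test. Of 2295 such probes tested, 565 (24.6%) were called at an adjusted p under 0.05, 242 higher and 323 lower in GSC colonies, against 47.1% of genes. They were singled out because their calls lie in data that no comparison above used, and which transcripts they detect is not known here.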

How the results depend on the processing

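Counts of calls over all genes and over whole lists were recomputed under every alternative, and those of parts of a list were not. The 7279 calls (3486 higher, 3793 lower) numbered 7134 to 7424 with another offset, a floor in place of normexp, no filter, the mean of a gene's probes, an intensity trend or median centring (4020 higher, 3188 lower), 6608 with a filter at the 50th percentile and 7771 with the 4 arrays alone. Without normalization between arrays 8179 genes were higher and 1732 lower. Leaving out 1 array gave 2711 to 3740 higher and 2719 to 4031 lower. Replicate numbers did not pair the samples: deviations of same-numbered arrays correlated at -0.342 between GSC colony and sorted arrays, -0.179 between GSC and PGC colonies and 0.326 between sorted and PGC colonies. With the replicate number as a block 6804 genes were called (3292 higher, 3512 lower), and of the genes named, Aldh1a1, Hif1a, Itga6, Itgb4 and Seh1l were not called (limma adjusted p from 0.056 to 0.078). The count of integrin falls was then 5. With the pairing of GSC colony and sorted arrays crossed, an alternative chosen after seeing the data, 7831 genes were called. Differences changed sign without normalization for Aldh1a1 (0.60), Clu (0.67), Farsa (0.47), Itga6 (0.20), Mki67 (0.53), Qars (0.50), Slc7a1 (0.16) and Tuba1b (0.12). They changed sign with median centring for Aldh1a1 (0.18), with the mean of probes for Lpcat3 (-0.66), Parm1 (0.90) and Seh1l (-0.19), and without GSC colony replicate 1 for Copz1 (0.56, against -2.91 without replicate 2). The cause was not tested. By size of the difference, 279 of 2615 genes at 1.5- to 2-fold and 7748 of 9487 genes under 1.5-fold did not pass. With 2 arrays per group precision is limited, and genes near the filter level have bounds only.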

Other observations

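Among transporters, channels and vesicle genes, changes went both ways. Of 282 solute carriers 69 rose (24.5%) and 52 fell (18.4%), against 22.5% and 24.5% of all genes. Slc38a5, a glutamine and histidine transporter, measured 11.09 and 11.09 in GSC colonies and 16.14 and 16.12 in sorted cells, a difference of -5.04 ± 0.10 (limma adjusted p = 2e-06). Slc35e4, an orphan carrier, and Slc1a5, a glutamine transporter, rose by 3.25 ± 0.17 and 2.81 ± 0.22. Of 55 potassium channel genes 7 rose and 15 fell. Kcnk2, a mechanosensitive channel, rose by 3.37 ± 0.62 (4.41 and 2.33 without GSC colony replicate 1 and 2). Kcnt1, a sodium-activated channel, fell by 2.91 ± 0.12, with a difference of -1.72 on its other probe. Of 54 RAB genes, which direct vesicle traffic, 15 rose (27.8%) and 10 fell (18.5%). Without sorted replicate 2, 9 of them rose, and 6 fell without it, sorted replicate 1 or GSC colony replicate 1. Rab15 rose from 9.66 and 9.69 to 13.48 and 13.57. Of 22 subunits of the vacuolar proton pump 12 rose and 1 fell (2 without GSC colony replicate 1), with Atp6v1c1 higher by 1.48 ± 0.13 and Atp6v0e2 lower by 1.57 ± 0.17.

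Death and differentiation genes did not move one way. Of 27 BCL2 family and caspase genes 10 rose and 11 fell. The p53-induced killers Bbc3 and Pmaip1 rose by 2.40 ± 0.11 and 2.03 ± 0.12, while Casp1, the inflammatory caspase of myeloid cells, was at least 2.92-fold lower. Of 18 retinoic acid genes 5 rose (27.8%) and 4 fell (22.2%), against 22.5% and 24.5% of all genes. The synthesis genes Bco1 and Aldh1a2 rose by 2.87 ± 0.13 and 1.85 ± 0.18. Cyp26b1, which destroys retinoic acid in the fetal testis, measured 10.13 and 9.96 in colonies and 12.38 and 12.48 in sorted cells and fell by 2.38 ± 0.12 (limma adjusted p = 1.7e-05). Stra6, a retinol receptor, fell by 2.05 ± 0.26. Of 15 S100 genes 9 rose and 2 fell, or 1 without either sorted array or GSC colony replicate 1: S100a6 and S100a4, found in fibroblasts, rose by 4.63 ± 0.11 and 4.56 ± 0.14, and S100a9, a gene of neutrophils, was at least 35.4-fold lower. Without normalization between arrays these counts shifted: 157 solute carriers were higher and 28 lower, and the counts were 21 and 8 for potassium channels, 35 and 3 for RAB genes, 12 and 3 for retinoic acid genes, 14 and 4 for BCL2 family and caspase genes, 13 and 1 for S100 genes and 14 and 1 for the proton pump.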
